A study of Homo sapiens with 6 samples.

Results

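PPIL2 and YPEL1 lie tail to tail on opposite strands of chromosome 22, and their last exons overlap. Which gene the reads on each row came from was not tested. Of this pair of rows, the PPIL2 row was 3.33-fold higher on average with an ATR inhibitor at 4 h of release from a thymidine arrest and 3.56-fold higher at 6 h, and it was also 2.26-fold higher in arrested than in cycling cells. The YPEL1 row stayed between 77.8 and 110.5 CPM (counts scaled to library size) in every library, and none of its 6 comparisons passed the test. The members are 2 of the 60252 rows of the deposited count table, and both are among the 13510 rows with enough counts to be tested. PPIL2 was chosen by its change in both inhibitor comparisons, so its values there are given as a description with no test. YPEL1 was added because the annotation places its exons over those of PPIL2, not by its counts, and it was tested in every comparison.

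The libraries came from RPE-1, an established human cell line of retinal pigment epithelium grown here as 1 line, and each condition was run in up to 3 independent experiments, called A, B and C after the column names. In 4h_ATRi (n = 3) and 4h_DMSO (n = 3), cells were held for 24 h by thymidine at 2 mM. The label of the unreleased control gives this arrest as G1/S. The cells were rinsed in 3 washes to release them. They were given 2 uM AZ20, an inhibitor of the kinase ATR, or its solvent DMSO at 1 h for a further 3 h. In 6h_ATRi (n = 2, experiments A and B; the library of experiment C is not analysed here) and 6h_DMSO (n = 3), the same treatments lasted 5 h. The arrested cells (n = 3) were not released and had no drug, and the cycling cells (n = 3) were not synchronised. By the study's own description 4 h of release is late S phase and 6 h is G2, and the question was which genes ATR controls at the level of transcription.

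ATR is activated by single-stranded DNA at replication forks, and through CHK1 it holds back CDK1 and the G2 and mitosis programme while DNA is copied. PPIL2 encodes a nuclear protein with a U-box, the domain that gives ubiquitin ligases their activity, joined to a cyclophilin-like domain of the peptidyl-prolyl isomerase family. YPEL1 encodes a small zinc-binding protein of the Yippee-like family, members of which have been seen at the centrosome and mitotic spindle, and the family member YPEL5 is a subunit of the CTLH ubiquitin ligase.

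The files hold no coordinates, so positions are those of GENCODE 29 on GRCh38, while the authors mapped to GRCh37. PPIL2 (ENSG00000100023) is on the + strand of chromosome 22 at 21666009 to 21700015, with 12 transcripts and 7669 exon bases. YPEL1 (ENSG00000100027) is on the - strand at 21697544 to 21735834, with 3 transcripts and 4713 exon bases. The genes share 1 stretch of 2472 bases, exonic in both and coding in neither, at their 3′ ends. That stretch is 32.2% of the exon bases of PPIL2 and 52.5% of those of YPEL1. It lies wholly in the longest transcript of each gene, of 4929 bases for PPIL2 and 4329 bases for YPEL1. The other YPEL1 transcripts, of 466 and 1319 bases, hold none of it.

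**Figure D1:**
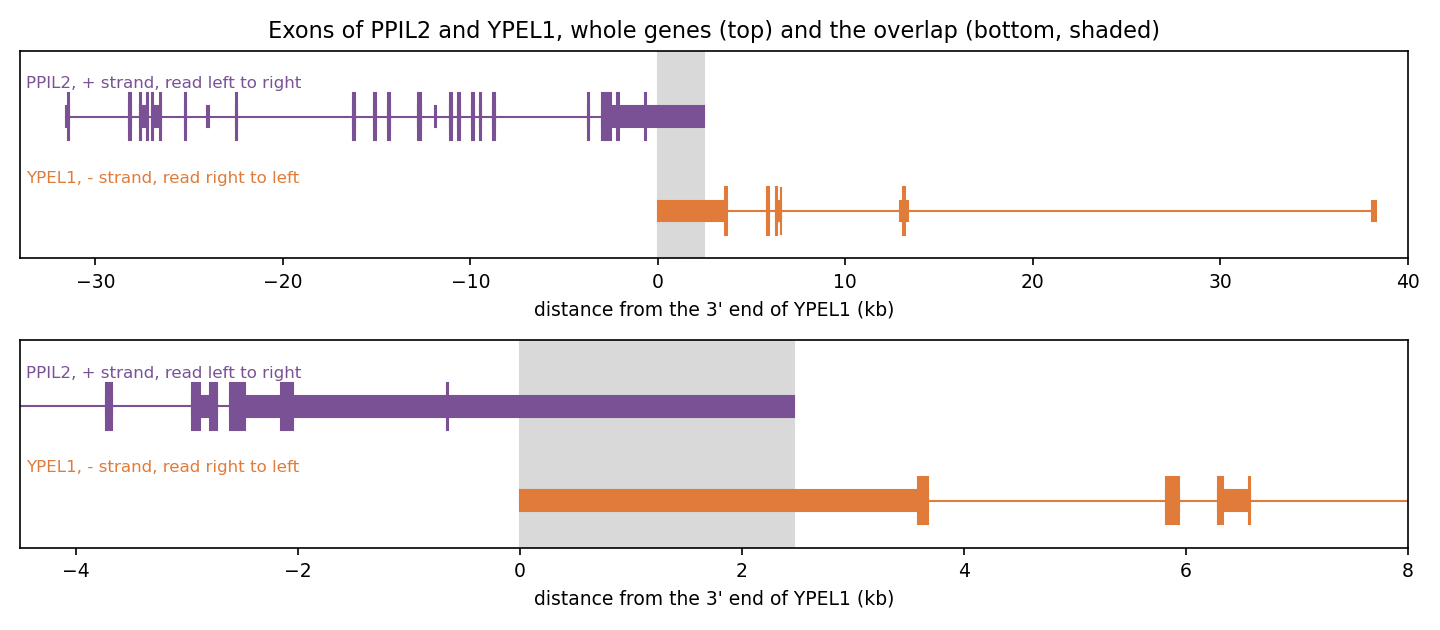
Exons of PPIL2 and YPEL1 from GENCODE 29, by distance in kb from the 3′ end of YPEL1, with tall blocks for coding bases, low blocks for other exon bases and grey shading for the shared stretch. The shaded 2472 bases lie within the last exon of each gene, cover part of it, and hold no coding base of either gene.

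Whether the reads on the PPIL2 row came from PPIL2 or YPEL1 was not tested. The promoter of YPEL1 was planned too, but it was not among the RefSeq windows used here. The promoter of PPIL2 is shown. It is the RefSeq window on GRCh38.p14, chr22:21665762-21666061, + strand, read 5′ to 3′, with 250 bases before the annotated start in lower case and the 50 bases from the start on in capitals.
PPIL2 promoter: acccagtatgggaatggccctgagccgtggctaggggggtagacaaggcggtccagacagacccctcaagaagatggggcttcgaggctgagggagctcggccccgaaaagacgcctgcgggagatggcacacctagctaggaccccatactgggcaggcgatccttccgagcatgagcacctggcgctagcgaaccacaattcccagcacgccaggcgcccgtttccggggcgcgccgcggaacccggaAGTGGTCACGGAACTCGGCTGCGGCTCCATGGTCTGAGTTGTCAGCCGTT
Its GC content was 64.7%, against a median of 58.7% over 35116 promoter windows of the same length. The motifs searched on both strands are known from promoters that are active in G2 and mitosis: CCAAT, the NF-Y box, and TTTGAA and TTTAAA, forms of the cell cycle homology region. None of these letters occurred in this window. Among all promoter windows, 34.6% held CCAAT, 15.2% held TTTGAA and 12.2% held TTTAAA.

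Each library held between 1758747 and 2357561 counts. The PPIL2 row had 1404 counts in all, between 26 and 191 per library with a median of 56. The YPEL1 row had 3161, between 157 and 219 with a median of 184. For the smallest of these, the 26 counts of PPIL2 in cycling experiment C, the exact 95% Poisson interval was 17.0 to 38.1. Such intervals cover counting error only. Experiment B stood apart from A and C over all features, so results are also given with experiment B left out where this changes them. Libraries of the same experiment deviated together, and values are therefore also given from a fit with experiment as a block where this changes a call. The retinal pigment epithelium markers RPE65, RLBP1 and DCT were at 0.0583, 0.206 and 0.0299 CPM, TYR, OTX2, TYRP1 and MITF were at 1.32, 2.13, 4.18 and 4.76 CPM. PMEL and BEST1 were at 323 and 12828 CPM on rows overlapped by CDK2 and FTH1, and the immune markers PTPRC and CD3E were at 0.333 and 0 CPM.

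The library kit keeps strand, but the strand setting used in counting is not given in the sources used here. Of 1737 tested coding genes with an antisense partner, 1121 (64.5%) had more counts on the antisense row. VIM, the main intermediate filament gene of such cells, had 1105 ± 111 CPM and its antisense row VIM-AS1 had 31801 ± 4759 CPM (SD, n = 17). Counting on the opposite strand would put YPEL1 reads of the shared 2472 bases on the PPIL2 row, and PPIL2 reads there on the YPEL1 row. Which gene the reads on each row came from was not tested. Each row is called by the name the table's identifier gives it, and that name alone does not settle the gene. The same holds for the rows of the relatives, neighbours and listed genes below, whose levels are those of rows. On the PPIL2 strand, AP000553.1 overlaps 325 exon bases of PPIL2 and had 7 counts over all libraries. RN7SL280P lies within YPEL1, shares no exon base with it and had 3 counts.

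With the inhibitor at 4 h, the PPIL2 row had 84.8, 87.1 and 49.4 CPM in 4h_ATRi experiments A, B and C, against 21.0, 27.7 and 17.7 CPM in 4h_DMSO. Each 4h_ATRi library was above every 4h_DMSO library, and experiment C was the lowest in both conditions. The means were 73.8 ± 21.2 CPM in 4h_ATRi and 22.1 ± 5.11 CPM in 4h_DMSO (SD, n = 3 each), a fitted log2 fold change of 1.73 ± 0.25 (SE; 95% interval 1.19 to 2.27). Within experiments the ratio was 4.05 in A, 3.14 in B and 2.79 in C. In bulk RNA, a change in how many cells express a gene and a change in its RNA per cell cannot be told apart. These values chose the gene and carry no test; over all features 0.311% passed the test in this comparison, at an adjusted p under 0.05.

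At 6 h the PPIL2 row had 78.4 and 91.6 CPM in 6h_ATRi experiments A and B, against 20.5, 27.6 and 23.6 CPM in 6h_DMSO experiments A, B and C. The groups did not overlap. The means were 85.0 ± 9.36 CPM in 6h_ATRi (SD, n = 2) and 23.9 ± 3.57 CPM in 6h_DMSO (SD, n = 3), a log2 fold change of 1.83 ± 0.26 (SE; 95% interval 1.25 to 2.41). The ratio was 3.82 within experiment A and 3.32 within experiment B. Over all features 0.0074% passed the test in this comparison, and since the comparison chose PPIL2, nothing is read from that share for it. The log2 response at 6 h minus that at 4 h was 0.10 ± 0.36 (SE). That difference mixes time with the lack of experiment C in 6h_ATRi. With the experiment as a block the log2 fold change was 1.73 ± 0.19 at 4 h and 1.68 ± 0.21 at 6 h (SE, no test).

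**Figure D2:**
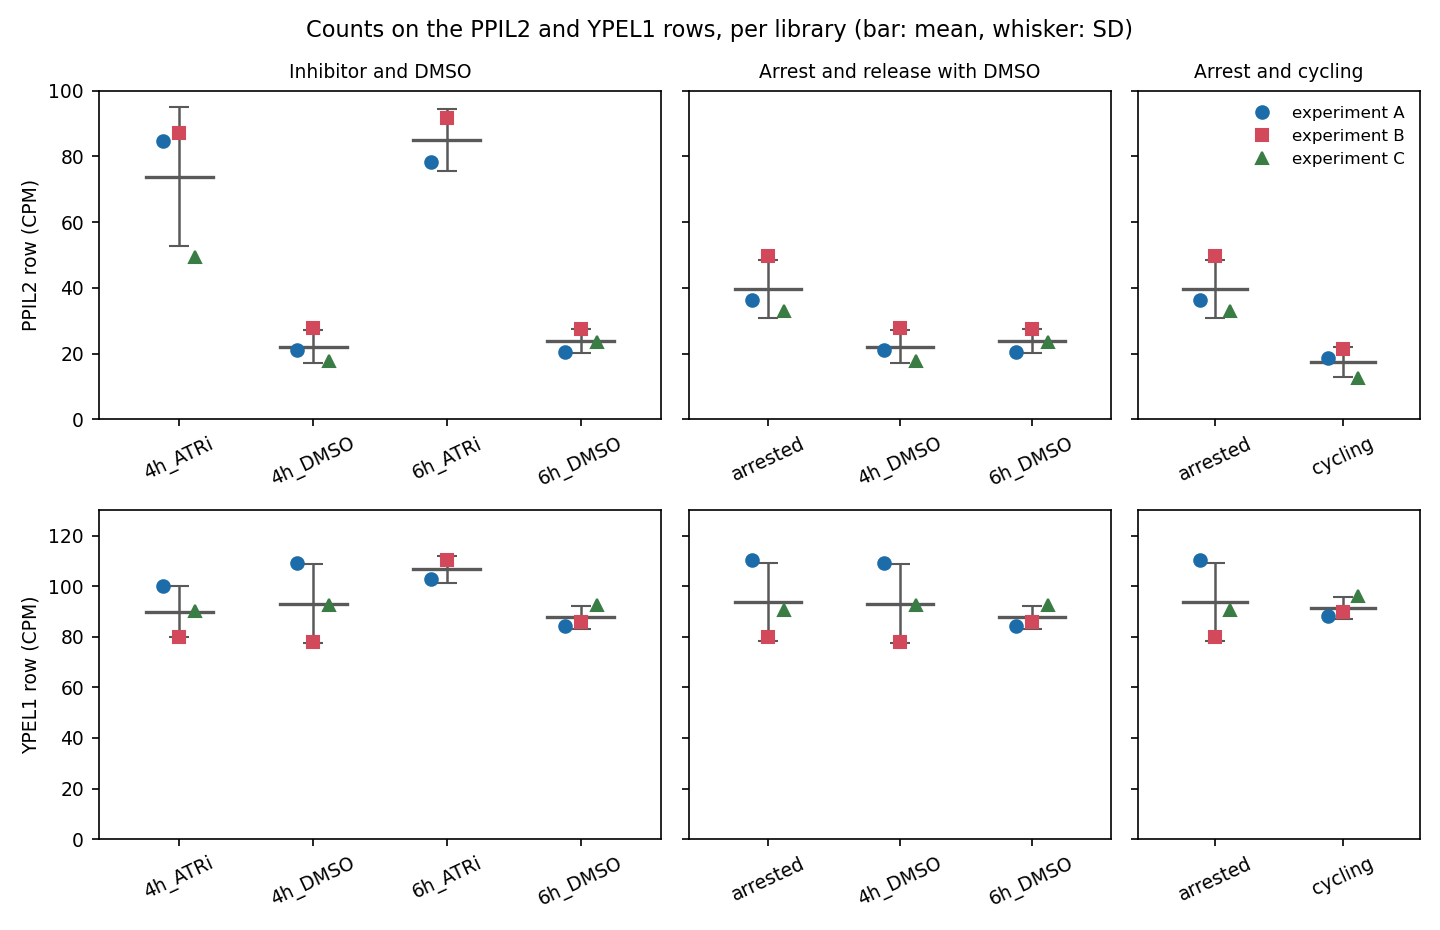
CPM of the PPIL2 row (top) and the YPEL1 row (bottom) in each library, by condition, with colour and shape for the experiment, a bar for the mean and a whisker for the SD. PPIL2 sits at 49.4 to 91.6 CPM in the inhibitor libraries and at or below 27.7 CPM in the DMSO libraries, while YPEL1 lies between 77.8 and 110.5 CPM throughout.

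The YPEL1 row, tested in the same libraries, had 99.9, 79.8 and 90.2 CPM in 4h_ATRi experiments A, B and C, against 109, 77.8 and 92.5 CPM in 4h_DMSO. The groups overlapped, and in both of them experiment A was highest and experiment B lowest. The log2 fold change was -0.05 ± 0.17 (SE; 95% interval -0.41 to 0.31; edgeR adjusted p = 1). At 6 h the row had 103 and 110.5 CPM in 6h_ATRi experiments A and B, against 84.4, 85.9 and 92.6 CPM in 6h_DMSO experiments A, B and C. Here both inhibitor libraries were above the DMSO libraries, and the ratio was 1.22 within experiment A and 1.29 within experiment B. The log2 fold change of 0.29 ± 0.18 (SE) did not pass the test (edgeR adjusted p = 1; 0.646 with the experiment as a block), and its 95% interval ran from -0.12 to 0.69. The 6 h response minus the 4 h response was 0.34 ± 0.25 on the log2 scale (edgeR adjusted p = 1).

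From 4 h to 6 h with DMSO, the PPIL2 row hardly differed in experiments A and B, at 0.978 and 0.996 of its 4 h level, and was 1.33-fold its 4 h level in experiment C. The log2 fold change of 6h_DMSO against 4h_DMSO was 0.11 ± 0.26 for PPIL2 (SE; 95% interval -0.47 to 0.68; edgeR adjusted p = 1), in a comparison where 0.0814% of all features passed. For YPEL1 it was -0.09 ± 0.17 (edgeR adjusted p = 1). The ranges overlapped for both rows. Both DMSO groups also served in the inhibitor comparisons that chose PPIL2.

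In the arrested cells the PPIL2 row had 36.2, 49.7 and 33.0 CPM in experiments A, B and C, against 18.6, 21.4 and 12.6 CPM in cycling cells. Each arrested library was above every cycling library, and within experiments the ratio was 1.94, 2.32 and 2.63 in A, B and C. The means of 39.6 ± 8.86 and 17.5 ± 4.53 CPM (SD, n = 3 each) gave a log2 fold change of 1.18 ± 0.26 (SE), and PPIL2 passed the test as higher in arrested cells (edgeR adjusted p = 0.0205). This comparison was not used to choose the gene, and 1.03% of all features passed it. The call was lost without cycling experiment A (edgeR adjusted p = 0.0757), arrested experiment B (0.119) or cycling experiment C (0.124), with log2 fold changes of 1.25, 0.99 and 1.01, and it held with the experiment as a block (1.13e-05), with experiment B left out (0.00413) and with DESeq2 (0.00418). Over the alternatives run the adjusted p lay between 1.13e-05 and 0.124, apart from a fit in which both rows were summed to 1.

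YPEL1 had 110.3, 80.0 and 90.4 CPM in arrested experiments A, B and C, against 88.2, 89.7 and 96.1 CPM in cycling cells. The groups overlapped, with the arrested libraries both highest and lowest, and the log2 fold change was 0.03 ± 0.17 (SE; edgeR adjusted p = 0.98). Whether the rows responded differently was tested on the log2 ratio of PPIL2 to YPEL1 within each library. That ratio was -1.25 ± 0.49 in arrested and -2.42 ± 0.46 in cycling cells (SD, n = 3 each), a difference of 1.17. An exact two-sided permutation test gave p = 0.1, the smallest that 3 libraries against 3 can give, and 0.2 adjusted over the 4 comparisons tested this way. Within experiments A, B and C the difference was 0.64, 1.38 and 1.48.

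After release with DMSO the PPIL2 row was compared with its level in arrested cells. In 4h_DMSO it was at 0.579, 0.558 and 0.537 of its arrested level in experiments A, B and C. In 6h_DMSO it was at 0.567, 0.556 and 0.713 of that level. Neither DMSO group overlapped with the arrested one. The log2 fold changes were -0.84 ± 0.25 for 4h_DMSO against arrested and -0.73 ± 0.25 for 6h_DMSO against arrested (SE). Neither passed the test (edgeR adjusted p = 0.142 and 0.156), and both passed it with the experiment as a block (0.00326 and 0.00926). Over all features 0.74% passed in the 4 h comparison and 2.32% in the 6 h comparison. The arrested libraries are shared by these comparisons and by the one with cycling cells. The DMSO libraries also served in the inhibitor comparisons that chose PPIL2, so the PPIL2 tests here are not independent of that choice.

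The YPEL1 row had log2 fold changes of -0.004 ± 0.17 for 4h_DMSO against arrested and -0.09 ± 0.17 for 6h_DMSO against arrested (SE; edgeR adjusted p = 0.999 and 0.91). Its ranges overlapped in both. The log2 ratio of PPIL2 to YPEL1 was lower by 0.84 and 0.63 in 4h_DMSO and 6h_DMSO than in arrested cells (exact two-sided permutation p = 0.2 and 0.1, adjusted 0.267 and 0.2, n = 3 each). This test takes no account of the experiment, and it uses the DMSO libraries of the comparisons that chose PPIL2. Within experiments A, B and C the ratio differed by -0.77, -0.80 and -0.93 in 4h_DMSO and by -0.43, -0.95 and -0.52 in 6h_DMSO, lower in each experiment. For 6h_DMSO against 4h_DMSO the ratio differed by 0.20 (exact permutation p = 0.6, adjusted 0.6, n = 3 each).

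**Figure D3:**
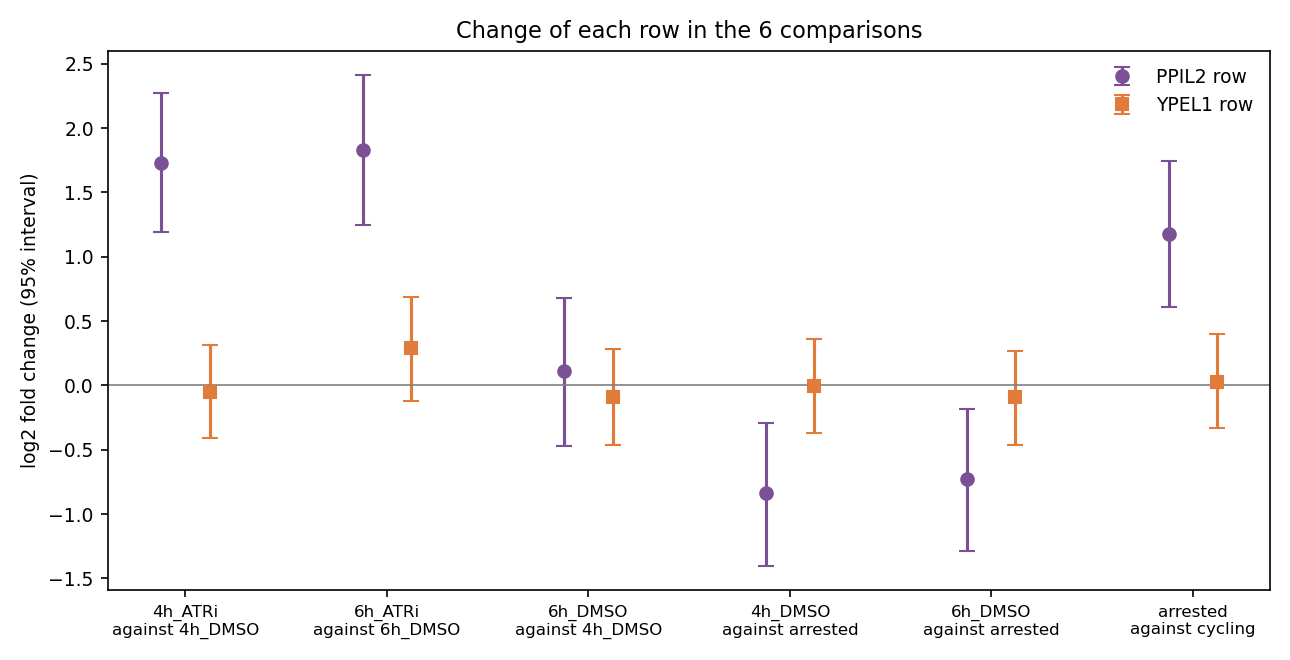
Log2 fold change of the PPIL2 and YPEL1 rows in the 6 comparisons, with 95% intervals computed from the fitted value and its SE. The PPIL2 row is at 1.73 and 1.83 in the inhibitor comparisons, which chose it and carry no test, at 1.18 in arrested against cycling and at -0.84 and -0.73 in release against arrest, where it did not pass the test without the experiment block; the intervals of YPEL1 include 0 in each comparison.

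By mean level PPIL2 ran 6h_ATRi, 4h_ATRi, arrested, 6h_DMSO, 4h_DMSO and cycling, at 85.0, 73.8, 39.6, 23.9, 22.1 and 17.5 CPM. Neighbours in this order overlapped in range except arrested and 6h_DMSO. The overlap of 4h_ATRi with arrested rested on 4h_ATRi experiment C at 49.4 CPM and arrested experiment B at 49.7 CPM. YPEL1 ran 6h_ATRi, arrested, 4h_DMSO, cycling, 4h_ATRi and 6h_DMSO, at 107, 93.6, 93.2, 91.3, 90.0 and 87.6 CPM, and each neighbour overlapped with the next.

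Over the 17 libraries PPIL2 spanned 12.6 to 91.6 CPM, a 7.3-fold range with a coefficient of variation of 66.3%. The 875 features with a mean within 1.25-fold of its own had a median of 20.5%, and 99.0% of them varied less than PPIL2. YPEL1 varied by 11.3%, where the 605 features of like level had a median of 17.7% and 5.29% of them varied less. Since PPIL2 was chosen for its change, its place in that order is a description. Per kb of exon the level was 5.38 CPM for PPIL2 and 19.7 CPM for YPEL1.

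Of the counts that fell on either row, PPIL2 held 45.9, 52.2 and 35.4% in 4h_ATRi experiments A, B and C, against 16.1, 26.3 and 16.1% in 4h_DMSO. It held 43.2 and 45.3% in 6h_ATRi experiments A and B, against 19.6, 24.3 and 20.3% in 6h_DMSO experiments A, B and C. In arrested cells it held 24.7, 38.3 and 26.7%, against 17.4, 19.3 and 11.6% in cycling cells. The share was highest in experiment B in each of the 6 conditions, by little in 6h_ATRi and by over 10 percentage points in the arrested cells. In 4h_ATRi experiment B, the 1 library in which PPIL2 had more counts than YPEL1, the exact 95% Clopper-Pearson interval was 46.9 to 57.4%.

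**Figure D4:**
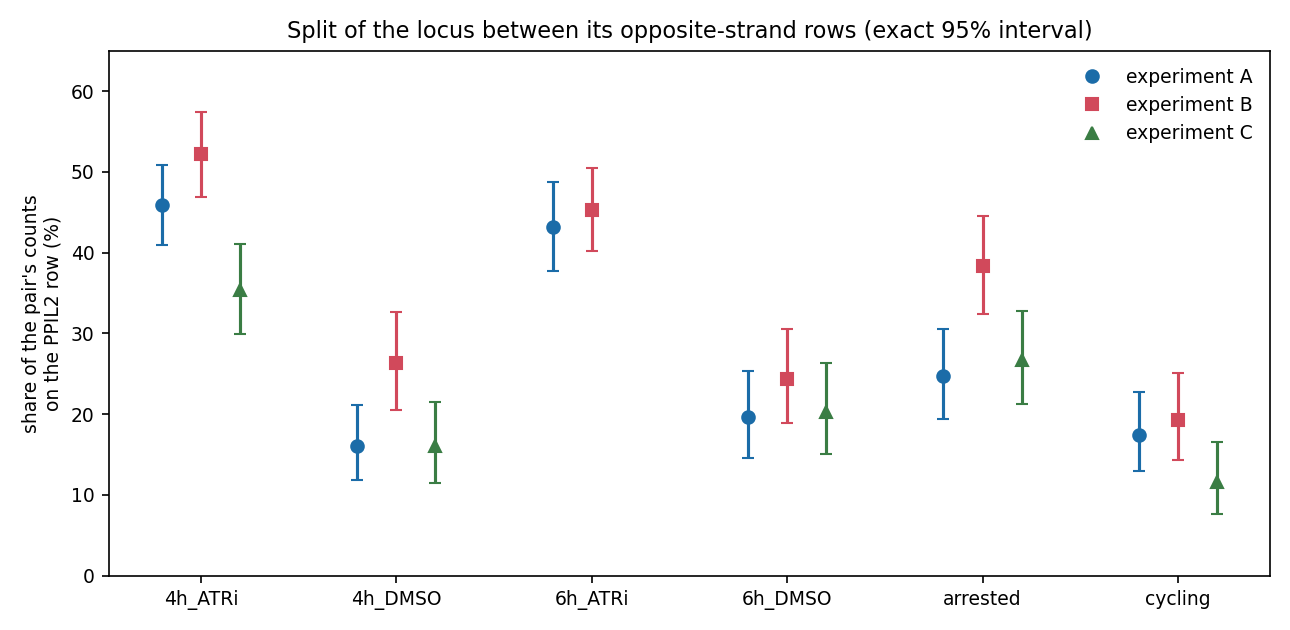
Share of the counts on both rows that fell on the PPIL2 row, in percent, per library, with exact 95% Clopper-Pearson intervals, coloured by experiment. The inhibitor libraries lie at 35.4 to 52.2%, above the DMSO libraries at 16.1 to 26.3%, and experiment B is the highest in each condition.

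The sum of both rows was 164 ± 22.7 CPM in 4h_ATRi, against 115 ± 13.1 CPM in 4h_DMSO (SD, n = 3 each). It was 192 ± 14.6 CPM in 6h_ATRi (n = 2), against 112 ± 5.91 CPM in 6h_DMSO (SD, n = 3). In arrested cells it was 133 ± 11.9 CPM, against 109 ± 2.12 CPM in cycling cells (SD, n = 3 each). With both rows summed to 1 feature, the log2 fold change was 0.51 ± 0.15 at 4 h and 0.78 ± 0.17 at 6 h with the inhibitor (SE, no test), and 0.29 ± 0.15 for arrested against cycling, which did not pass (edgeR adjusted p = 0.565).

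Pairs of coding genes that overlap on opposite strands give the setting for a locus whose rows part. There were 1366 such pairs with both rows tested, PPIL2 and YPEL1 among them. In arrested against cycling the log2 fold changes of the partners differed by a median of 0.31, and by 1.14 for PPIL2 and YPEL1, which 55 pairs exceeded. In 4h_DMSO against arrested the median was 0.30 and the difference for PPIL2 and YPEL1 0.84, which 129 pairs exceeded. In 6h_DMSO against arrested the median was 0.32 and the difference 0.64, which 295 pairs exceeded. In 6h_DMSO against 4h_DMSO the difference was 0.20, which 801 pairs exceeded. In the inhibitor comparisons the difference was 1.79 at 4 h and 1.54 at 6 h, where it consists mostly of the change that chose PPIL2 and is not ranked. In arrested against cycling 29 of the 1366 pairs, PPIL2 and YPEL1 included, had 1 row past the test, and 3 had both. Over all features 1.03% passed in that comparison, and the pairs were not compared with features that have no such partner.

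Genes of G2 and mitosis are the set that ATR inhibition is known to release. This list, like the other gene lists, was chosen with earlier results of these data known, so its counts are a description. It held 20 genes, and 20 were tested. In 4h_ATRi against 4h_DMSO 8 were higher, beside 0.311% of all features, with a list median of 0.92 on the log2 scale, where the median of all features was -0.01. The count was 1 without 4h_ATRi experiment A or without 4h_DMSO experiment C, 2 without 4h_DMSO experiment B, and 3 without 4h_ATRi experiment B, without 4h_DMSO experiment A or in a fit of the compared groups alone. They were CENPF and CENPE of the kinetochore, the mitotic kinase PLK1, the kinesin KIF14, topoisomerase TOP2A, the ubiquitin-conjugating enzyme UBE2S, and the spindle proteins TPX2 and CKAP2. CENPF had 134 ± 7.97 CPM in 4h_ATRi and 69.4 ± 5.17 CPM in 4h_DMSO (SD, n = 3 each). In 6h_ATRi against 6h_DMSO none of the 20 passed edgeR's test, beside 0.0074% of all features, with a median of 0.67 and 19 positive. Of the 20, 10 had an unadjusted p under 0.05 there, DESeq2 called 1 of them, and 2 rose with the experiment as a block, CENPF and UBE2S. Of all 13510 features 648 had such a p, DESeq2 called 18, and 55 rose with the block.

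In 6h_DMSO against 4h_DMSO the same list had a median of 0.72 with 19 of 20 positive, and PPIL2 was at 0.11. In that comparison 0 of the list passed edgeR's test, beside 0.0814% of all features. Of the 20, 13 had an unadjusted p under 0.05 there, DESeq2 called 1, 2 were called without 6h_DMSO experiment B, and 6 rose with the experiment as a block. Of all 13510 features 672 had such a p, DESeq2 called 30, and 88 rose with the block. In 6h_DMSO against arrested 12 of the 20 rose, beside 2.32% of all features, with a median of 1.15 and -0.73 for PPIL2. That count was 7 without arrested experiment A, arrested experiment C or 6h_DMSO experiment C. In 4h_DMSO against arrested 1 of them, UBE2S, rose, beside 0.74% of all features, with a list median of 0.55 and -0.84 for PPIL2. There, 6 rose with the experiment as a block, as did 304 of the 13510 features. The count was 2 without 4h_DMSO experiment A or B, and 0 without arrested experiment A or C. In arrested against cycling 4 fell, the centromere histone CENPA, PLK1, the anaphase activator CDC20 and UBE2S, beside 1.03% of all features. The list median was -0.72, and PPIL2 was at 1.18. With the experiment as a block 7 fell, as did 383 of the 13510 features. In the comparisons with arrested cells the PPIL2 value and the list's median thus had opposite signs.

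**Figure D5:**
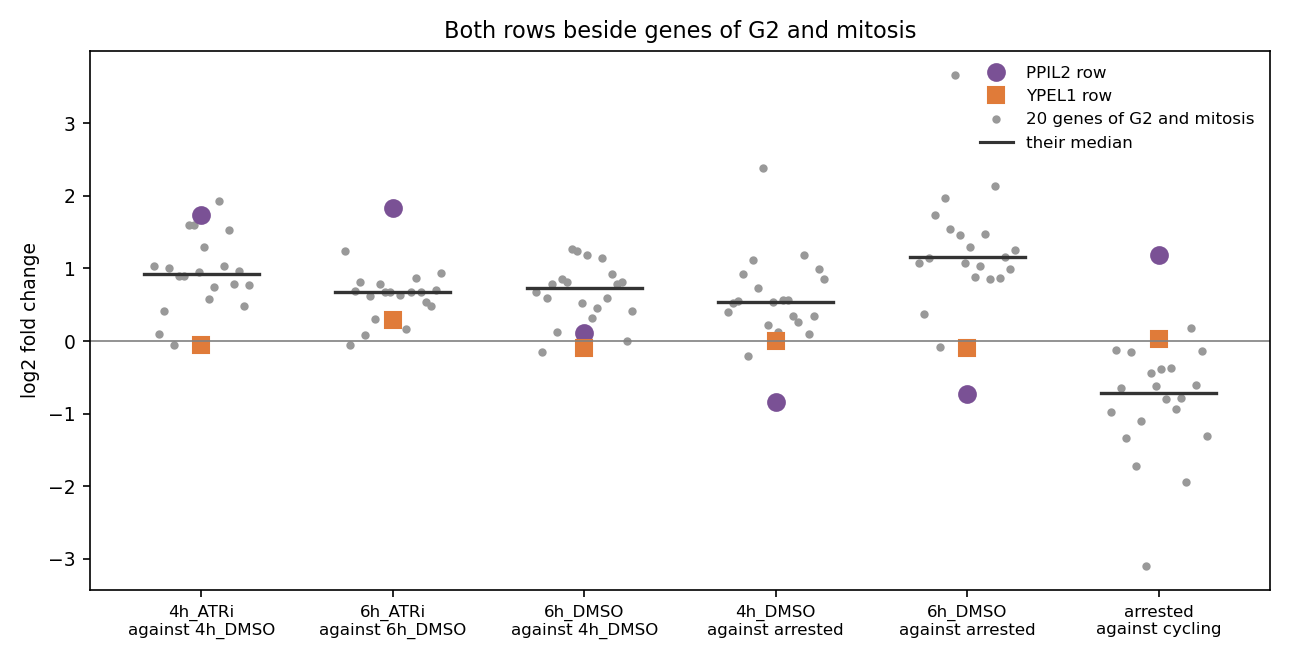
Log2 fold change of the PPIL2 row, the YPEL1 row and 20 genes of G2 and mitosis (grey points, with a line at their median) in the 6 comparisons. In 6h_DMSO against arrested the list's median is 1.15 and PPIL2 is at -0.73, and in arrested against cycling the median is -0.72 and PPIL2 is at 1.18.

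Of 20 genes of S phase, 18 were tested. Their median was -0.42 in 4h_ATRi against 4h_DMSO and -0.07 in 6h_ATRi against 6h_DMSO, with no gene past edgeR's test or DESeq2's and 3 and 2 at an unadjusted p under 0.05. Of all 13510 features 0.311% and 0.0074% passed edgeR's test there, and 756 and 648 had such an unadjusted p. In 6h_DMSO against arrested 2 fell, the helicase subunit MCM3 and the thymidylate synthase TYMS, beside 2.32% of all features, with a list median of -0.92 where the median of all features was -0.01. The count was 1 without arrested experiment A, arrested experiment C or 6h_DMSO experiment B, 0 without 6h_DMSO experiment C, and 8 with the experiment as a block, a fit that called 1041 features in all. In arrested against cycling, where PPIL2 was higher, the S phase median was -0.04 with 9 of 18 positive.

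The relatives of each protein were listed by family. Of 16 other cyclophilins 13 were tested, of 6 U-box ligases 6, of 10 subunits of the CTLH complex 8, and of 4 other Yippee-like genes 2. No gene of these lists passed edgeR's test or DESeq2's in any of the 6 comparisons. Over all features 0.0074% to 2.32% passed edgeR's test, so a count of 0 in lists of this size is not told apart from that share. At an unadjusted p under 0.05 there were 0 in either inhibitor comparison, where 756 (4 h) and 648 (6 h) of the 13510 features had such a p. In the other comparisons there were at most 2 per list, where 672 to 1607 features had one. In 4h_ATRi against 4h_DMSO the medians were -0.17 for cyclophilins, 0.15 for U-box ligases and -0.04 for CTLH subunits, and in 6h_ATRi against 6h_DMSO they were -0.15, 0.04 and -0.04.

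Among the cyclophilins the smallest inhibitor p-values were those of PPID, a partner of HSP90, and of PPIG, a nuclear cyclophilin with a serine-arginine-rich tail. PPID had 18.4 ± 2.44 CPM in 6h_ATRi (n = 2) and 27.0 ± 6.62 CPM in 6h_DMSO (SD, n = 3; log2 fold change -0.56 ± 0.27, edgeR adjusted p = 1). PPIG had 26.5 ± 7.7 and 37.3 ± 0.426 CPM in the same groups (log2 fold change -0.49 ± 0.25, edgeR adjusted p = 1). Among the U-box genes, WDSUB1 had a log2 fold change of -1.04 ± 0.57 at 4 h and UBOX5 of 1.21 ± 0.91 at 6 h, on means of 5.54 and 2.74 CPM over all libraries. Among the CTLH subunits, MKLN1 had -0.86 ± 0.48 at 4 h and RANBP10 1.28 ± 0.74 at 6 h.

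YPEL4 was the relative whose result depended on the experiment block. It had 21.0, 103 and 27.5 CPM in 4h_ATRi experiments A, B and C, against 10.5, 39.1 and 12.8 CPM in 4h_DMSO. The groups overlapped, with experiment B far above A and C in both, and the inhibitor library was the higher one within each experiment. The log2 fold change of 1.28 ± 0.81 (SE) did not pass the test (edgeR adjusted p = 1) and passed it with the block (4.25e-05). With experiment B left out it did not pass, with the block (log2 fold change 1.06, edgeR adjusted p = 0.108) or without it (0.144). At 6 h it had 23.5 and 59.8 CPM in 6h_ATRi experiments A and B, against 15.4, 59.3 and 19.7 CPM in 6h_DMSO experiments A, B and C, and passed in neither fit. YPEL4 is itself overlapped by CLP1 and AP000662.1. YPEL3, overlapped by AC012645.1, averaged 6.37 ± 3.26 CPM (SD, n = 17), with log2 fold changes of -0.38 ± 0.55 at 4 h and 0.23 ± 0.55 at 6 h of inhibition (edgeR adjusted p = 1 for each). The YPEL2 and YPEL5 rows averaged 0.477 and 2.36 CPM and held too few counts to test.

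None of the neighbouring coding genes described here passed edgeR's test or DESeq2's in the 6 comparisons, and 1 (PPM1F) had an unadjusted p under 0.05, in both comparisons of DMSO release with arrest. Over all features 0.0074% to 2.32% passed edgeR's test in these comparisons. Before PPIL2 lie SDF2L1, CCDC116, YDJC and UBE2L3, at distances of 21711 to 41975 bases, and beyond YPEL1 lie PPM1F, TOP3B and VPREB1, at 183586 to 508841 bases. In 4h_ATRi against 4h_DMSO the log2 fold changes were -0.09 ± 0.29 for UBE2L3, a ubiquitin-conjugating enzyme, -0.06 ± 0.32 for YDJC, 0.74 ± 0.65 for SDF2L1, a chaperone cofactor of the endoplasmic reticulum, and -0.16 ± 0.21 for the phosphatase PPM1F. In arrested against cycling these 4 lay between -0.70 and -0.09. CCDC116, TOP3B and VPREB1 had 5, 98 and 0 counts over all libraries and were not tested.

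Across the 17 libraries, which share depth, experiment and condition, the levels of PPIL2 and YPEL1 had a Pearson r of 0.15 and a Spearman rho of 0.11. By r, YPEL1 ranked 4837 among the features most like PPIL2. The 5 features most like PPIL2 were SPDYE17 (r = 0.84), CYP1B1-AS1 (0.82), AL596202.1 (0.82), KBTBD2 (0.82) and AL031772.1 (0.81). With experiment B left out they ranked 36, 12, 21, 64 and 26 in the same order. For YPEL1 they were AL031670.1 (0.83), RNF39 (0.77), DYNC1LI1 (0.75), AP001020.3 (0.75) and CACTIN-AS1 (0.73). With experiment B left out these ranked 8, 335, 87, 619 and 473. The r between PPIL2 and YPEL1 was then 0.31, and YPEL1 ranked 2586. With the mean of each experiment subtracted, the features named for PPIL2 ranked 5, 9, 3, 11 and 14. Those named for YPEL1 then ranked 2, 11, 22, 24 and 29. Leaving out experiment B also leaves fewer libraries, so the lower ranks cannot be put down to that experiment. All of the named features but KBTBD2 and DYNC1LI1 overlap other genes on the opposite strand, among them CYP1B1, TIAM2, HECA, PANK2, PPP1R11, YES1 and CACTIN.

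In the authors' deposited table the log2 fold change of PPIL2 was 1.49 for 4h_ATRi over 4h_DMSO and 1.5 for 6h_ATRi over 6h_DMSO. The authors' deposited table gave YPEL1 -0.04 and 0.25 in these comparisons. For arrested over cycling the authors' deposited table gave 0.99 for PPIL2 (adjusted p = 0.00516) and 0.05 for YPEL1 (adjusted p = 0.965). For arrested over 4h_DMSO and over 6h_DMSO it gave PPIL2 0.7 and 0.61, with adjusted p of 0.0848 and 0.125 in the authors' deposited table.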

How the data were processed

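Counts per gene of 17 RPE-1 libraries were used as deposited by the authors. Per the submitters' processing notes the tools were TopHat, HTSeq and DESeq2 on GRCh37; which versions, gene models and strand option were used is not given in the sources used here. Per the labels' protocols RNA was taken up in Trizol and libraries were made with the KAPA Stranded mRNA-Seq kit. The authors' deposited comparison table holds log2 fold changes and p-values, which are quoted only where named.

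Rows were matched by Ensembl identifier to GENCODE 29 (55951 of 60252 matched). Features were filtered with filterByExpr (minimum count 10, minimum total 15), leaving 13510, scaled by TMM and fitted in edgeR 4.0.16 (R 4.3.3) by the quasi-likelihood test with 1 mean per condition over all 17 libraries (11 residual degrees of freedom), with Benjamini-Hochberg adjustment over all features. CPM use the same scaling. The members and gene lists were chosen with earlier results of these data known. Genes named are both members, Yippee-like relatives, coding neighbours on each side (4 each, of which 1 is not reported here), overlapping features, list members past the test or else the 2 with the smallest inhibitor p, and the 5 features most like each member by Pearson r on log2 CPM (prior count 2).

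Whether experiment letters pair libraries was checked by correlating deviations from condition means: over 17 same-letter pairs r was 0.138 to 0.534, so a fit with the letter as a block was an alternative. The letters come from the column names, and the series' text gives independent experiments. DESeq2 1.42.0, RLE scaling, no filter, the compared groups alone, leaving out each library or experiment B, and summing both rows were also run. The permutation test of the log2 ratio of the rows was added after the data were seen.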

Additional observations from a re-analysis of the deposited data

How the results depend on the processing

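Of the members' results, the replicate block brought PPIL2 past the threshold in 4h_DMSO against arrested (log2 -0.84, adjusted p = 0.00326; -0.83 with the block and without experiment B, 0.0491) and in 6h_DMSO against arrested (-0.73, 0.00926), and it changed no other call of either row. With both rows summed, the PPIL2 values became 0.51 and 0.78 at 4 h and 6 h of inhibition, -0.05 for 6h_DMSO against 4h_DMSO and 0.29 for arrested against cycling, by the construction of that sum. YPEL1 in 4h_DMSO against arrested was 0.01 with no filter, 0.003 in the compared groups alone and 0.03 without experiment B, with or without the block.

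With 1 library left out, PPIL2 ranged from 1.61 to 1.97 at 4 h and 1.71 to 1.95 at 6 h of inhibition, -0.02 to 0.31 for 6h_DMSO against 4h_DMSO, -1.02 to -0.63 and -0.85 to -0.51 for 4h_DMSO and 6h_DMSO against arrested, and 0.99 to 1.37 for arrested against cycling. YPEL1 ranged from -0.16 to 0.08, 0.24 to 0.33, -0.20 to 0.04, -0.11 to 0.15, -0.18 to 0.07 and -0.09 to 0.15 in the same order of comparisons. Where 6h_ATRi is left with 1 library, it is assumed to vary like the others.

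Calls over all features in 4h_ATRi against 4h_DMSO (42) were 237 with the replicate block, 22 in the compared groups alone, 85 without experiment B, 122 with the block and without B, and 13 to 41 without 1 library. In 6h_ATRi against 6h_DMSO (1) they were 72 with the block, 18 by DESeq2, 10 with no filter, 2 in the compared groups, 25 and 26 without B, 0 with the rows summed, and 1 to 2 without 1 library. In 6h_DMSO against 4h_DMSO (11) they were 141 with the block, 30 by DESeq2, 34 with no filter, 82 and 106 without B, and 7 to 14. In 4h_DMSO against arrested (100) they were 644, 183 by DESeq2, 59 in the compared groups, 418 and 549 without B, and 26 to 85. In 6h_DMSO against arrested (314) they were 1041, 771 and 969 without B, and 143 to 299. In arrested against cycling (139) they were 762, 264 and 350 without B, and 50 to 86. The cause was not tested. Depth limits the precision of PPIL2, with 26 counts in its lowest library.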
